A study of Mus musculus with 20 samples.

Results

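Doxycycline induction of a C/EBPβ whose poly(ADP-ribosyl)ation (PARylation) sites are mutated was described here by the places on chromatin where C/EBPβ peaks were called before and after induction. The peak list of the uninduced mutant line (Mut -Dox) and that of the induced mutant line (Mut +Dox) were merged where peaks overlapped by at least 1 bp. Each merged site was classed as shared, as Mut +Dox only (gained) or as Mut -Dox only (lost). The merge gave 18362 sites, against 23854 when all 5 lists of the series are merged, and comprised 6316 shared, 11490 gained and 556 lost sites.

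The cells were 3T3-L1, a mouse preadipocyte line that can be turned into fat cells in culture, and they had been given a C/EBPβ transgene, the LAP isoform with an HA tag, under doxycycline control, with its PARylation sites mutated in the Mut line. The Mut -Dox group received vehicle and the Mut +Dox group 1 µg/ml doxycycline for 8 h, in both cases after 2 days of contact inhibition. The wild-type line (WT), used below only for comparison, carried the inducible wild-type protein and has 3 lists, without doxycycline, with it, and with it after 1 h of the PARP inhibitor BYK204165 (WT +Dox +BYK). Each group had 2 ChIP libraries and 2 input libraries, but each condition is represented by 1 peak list without replicate numbers. No difference therefore has a replicate check, no test was possible and no p-value is given. The labels do not name the mutated residues and do not say whether a line was 1 clone or a pool. Vehicle and doxycycline also differ by the drug itself, which cannot be told apart from the induced protein. The antibody was raised against C/EBPβ, so endogenous and induced protein cannot be told apart, and ChIP measures no expression by which the identity of the cells could be checked.

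C/EBPβ, a transcription factor of the bZIP class, rises early after an adipogenic stimulus and, with C/EBPδ, turns on Pparg and Cebpa, the master regulators of the fat cell programme. bZIP proteins bind DNA as dimers, and C/EBP dimers prefer palindromic sites, while dimers of a C/EBP with ATF4 or a related partner read a composite of both recognition sequences. PARylation is the attachment of ADP-ribose chains by PARP enzymes, which use NAD+, and it can alter the charge and DNA binding of the proteins that carry it.

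Promoters that carried C/EBPβ in the mutant line are shown first, because they are the only stretches for which sequence was read. Sequences are from RefSeq on GRCm38.p6, whose coordinates are those of mm10, in windows from 250 bases before to 50 bases after a gene's start. They were chosen after their values were seen. The promoter of Pparg, which encodes the nuclear receptor at the centre of fat cell differentiation, lay under a shared site (chr6:115420485-115422486) at rank 2144 of the 6898 Mut -Dox peaks and rank 171 of the 17816 Mut +Dox peaks, where rank 1 is the highest score. This window belongs to a start inside the gene, and the site lies 60.6 kb from the outer start of the gene's span. The sites nearest to that outer start lay 11.2 kb before and 8.10 kb after it. The window holds 2 matches to the degenerate C/EBP motif TTGCNNAA, in capitals below.
Pparg (chr6:115421816-115422115, plus strand): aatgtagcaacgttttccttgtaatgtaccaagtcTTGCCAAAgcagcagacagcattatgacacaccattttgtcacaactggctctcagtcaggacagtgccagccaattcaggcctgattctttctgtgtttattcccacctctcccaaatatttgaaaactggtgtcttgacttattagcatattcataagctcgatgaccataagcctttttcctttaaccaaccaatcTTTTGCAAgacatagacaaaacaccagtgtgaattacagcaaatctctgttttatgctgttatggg
The promoter of Atf3, a stress-induced bZIP factor, lay under a gained site (chr1:191182840-191183911) at rank 3659 of Mut +Dox. In it the C/EBP-ATF composite TGATGCAA, in capitals, stands on the other strand and begins 110 bases before the gene's start.
Atf3 (chr1:191183284-191183583, minus strand): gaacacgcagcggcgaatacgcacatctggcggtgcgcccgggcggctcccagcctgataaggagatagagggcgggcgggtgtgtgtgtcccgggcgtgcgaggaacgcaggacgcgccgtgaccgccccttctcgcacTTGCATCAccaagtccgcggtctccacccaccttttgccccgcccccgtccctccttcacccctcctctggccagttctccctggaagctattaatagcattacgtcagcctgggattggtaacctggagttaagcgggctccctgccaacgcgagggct

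Shared promoters held the C/EBP palindrome TTGCGCAA more often than gained ones, and 6 shared ones are shown with the palindrome in capitals. Ptgs2 encodes the prostaglandin synthase COX-2, Rpia an enzyme of the pentose phosphate pathway, Mpc2 a subunit of the mitochondrial pyruvate carrier, Smad6 an inhibitor of BMP signalling, Cep295 a centriole protein and Abcc5 a transporter of organic anions.
Ptgs2 (chr1:150099936-150099995, plus strand): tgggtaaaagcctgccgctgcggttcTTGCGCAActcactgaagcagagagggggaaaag
Rpia (chr6:70792187-70792246, minus strand): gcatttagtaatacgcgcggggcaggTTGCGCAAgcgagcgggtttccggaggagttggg
Mpc2 (chr1:165461042-165461101, plus strand): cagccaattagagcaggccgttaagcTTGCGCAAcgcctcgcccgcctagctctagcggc
Smad6 (chr9:64022065-64022124, minus strand): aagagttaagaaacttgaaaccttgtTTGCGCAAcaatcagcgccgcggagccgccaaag
Cep295 (chr9:15357881-15357940, minus strand): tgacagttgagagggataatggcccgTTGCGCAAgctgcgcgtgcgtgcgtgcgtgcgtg
Abcc5 (chr16:20426347-20426406, minus strand): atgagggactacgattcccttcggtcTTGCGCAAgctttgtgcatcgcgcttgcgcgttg
Of the few gained and lost promoters with the palindrome, 3 gained ones (Orm2, an acute phase protein, Canx, the chaperone calnexin, whose promoter overlaps that of Gm46280, and Eif4g1, a translation initiation factor) and the lost one (Dclre1c, the DNA repair nuclease Artemis) read as follows.
Orm2 (chr4:63362303-63362362, plus strand): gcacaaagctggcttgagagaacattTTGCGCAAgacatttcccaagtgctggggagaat
Canx (chr11:50325694-50325753, minus strand): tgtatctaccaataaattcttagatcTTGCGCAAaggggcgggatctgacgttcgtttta
Eif4g1 (chr16:20672544-20672603, plus strand): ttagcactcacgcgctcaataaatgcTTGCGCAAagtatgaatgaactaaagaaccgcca
Dclre1c (chr2:3423881-3423928, plus strand): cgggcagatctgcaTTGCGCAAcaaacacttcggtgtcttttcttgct

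The composite TGATGCAA, in capitals on whichever strand it matched, stood in shared promoters of 24 genes, of which 6 with known roles are shown. Aars charges alanine tRNA, Got1 is aspartate aminotransferase, Pycr1 makes proline, Slc7a11 is the cystine transporter, Chac1 degrades glutathione and Herpud1 serves the degradation of misfolded proteins.
Aars (chr8:111033704-111033763, plus strand): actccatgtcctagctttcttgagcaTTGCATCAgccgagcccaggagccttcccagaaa
Got1 (chr19:43524674-43524733, minus strand): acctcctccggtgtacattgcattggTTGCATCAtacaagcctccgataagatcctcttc
Pycr1 (chr11:120643818-120643877, minus strand): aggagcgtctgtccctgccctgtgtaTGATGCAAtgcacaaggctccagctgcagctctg
Slc7a11 (chr3:50443646-50443705, minus strand): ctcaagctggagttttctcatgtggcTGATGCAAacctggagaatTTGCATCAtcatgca
Chac1 (chr2:119351023-119351082, plus strand): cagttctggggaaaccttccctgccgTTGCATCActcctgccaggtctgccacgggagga
Herpud1 (chr8:94386291-94386350, plus strand): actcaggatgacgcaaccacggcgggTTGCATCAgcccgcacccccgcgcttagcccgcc
Gained promoters with the composite included those of Il13ra2, a decoy receptor for interleukin-13, and Angptl8, a secreted regulator of lipoprotein lipase.
Il13ra2 (chrX:147429304-147429363, minus strand): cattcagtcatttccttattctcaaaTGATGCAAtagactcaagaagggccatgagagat
Angptl8 (chr9:21835354-21835413, plus strand): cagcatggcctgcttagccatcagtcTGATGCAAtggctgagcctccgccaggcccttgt

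After induction the mutant line kept nearly all of its earlier sites and added many more. The Mut -Dox list gave 6872 sites and the Mut +Dox list 17806, and 91.9% of the former (95% Wilson interval 91.2 to 92.5) had a peak in the latter. There were 20.7 gained sites per lost site (exact interval 19.0 to 22.5). These intervals cover counting error only, and neighbouring sites are not independent. Read depth was unknown for both lists, so a longer list from more reads or better enrichment cannot be told apart from one with more bound sites.

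Whether a site was kept varied with the score, the authors' own value per peak, which is used here only to rank peaks within a list. All 690 sites in the highest decile of Mut -Dox had a peak in Mut +Dox, and in the lowest decile 77.9% did. In the other direction, 91.9% of the highest decile of Mut +Dox was present before induction, 28.8% of the fifth decile and 6.96% of the lowest. The strong sites after induction were thus mostly sites already seen before it, and the weak ones mostly not. On a scale where 100 is the highest score of the list, shared sites had a median percentile of 77.7 in Mut +Dox and gained sites 35.8. Lost sites had a median percentile of 21.0 in Mut -Dox, and none of them was in its highest decile. Shared sites stood in broadly the same order in both lists (Spearman rank correlation 0.620 over 6316 sites, a description across sites of the same cell line).

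**Figure D1:**
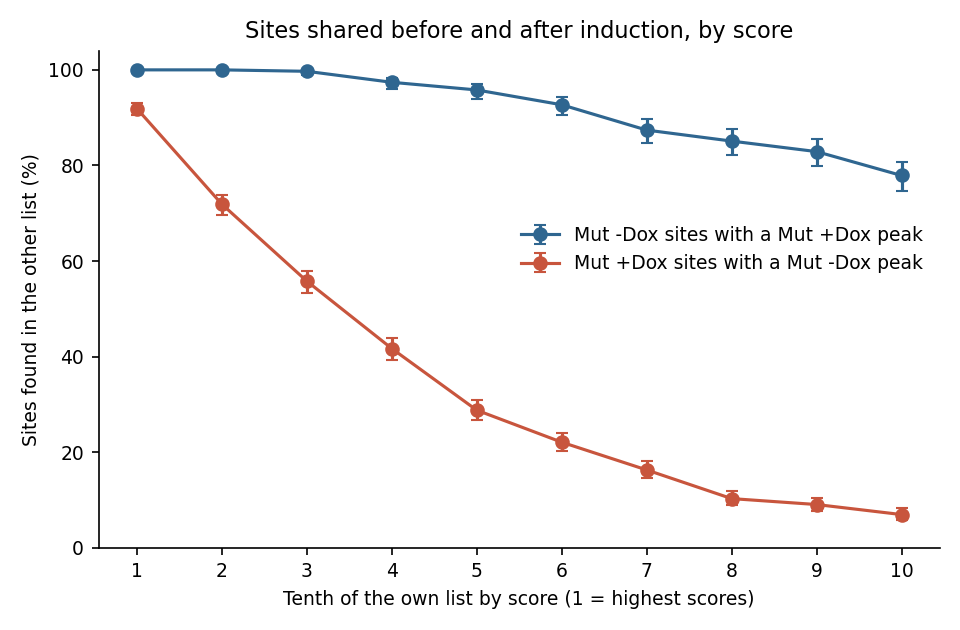
Share of sites found in the other list (vertical axis, percent) for each decile of the own list by score (horizontal axis, 1 the highest). Blue points are Mut -Dox sites and red points Mut +Dox sites, with 95% Wilson intervals. The blue line falls from 100% to 77.9% and the red line from 91.9% to 6.96%.

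The strongest shared sites lay inside genes, close to them and far from any. The site inside Gldc (chr19:30106426-30109234), the decarboxylase that breaks down glycine, ranked first in both lists. The site 12.5 kb from Auh, an enzyme of leucine breakdown, ranked 10 and 9, and that 0.0270 kb from Abhd11, a mitochondrial hydrolase, 17 and 6. A site 2.83 kb from Cp, which encodes the copper carrier ceruloplasmin, an acute phase protein, ranked 5 and 34. Sites inside Musk, a receptor kinase of the neuromuscular junction, and Btbd19 ranked 27 and 19, and 4 and 44. The other 4 of this set of 10 lay far from any coding gene. Those nearest to Zfp637 and Slc22a22 were 187 and 207 kb away. Those nearest to Osr1 and Zeb2, both transcription factors of mesenchymal cells, were 206 and 630 kb away. All 10 also had a peak in each WT list.

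Few gained sites reached the top of the induced list. Of the 11490, 145 (1.26%) were in its highest decile. The first lay inside Thada (chr17:84320337-84322850), at rank 120 of 17816, and the next inside Nrp1, a coreceptor for VEGF and semaphorins, at rank 168. Sites inside Foxp1, a forkhead repressor, 2.80 kb from Nfil3, a bZIP repressor, and 6.17 kb from Nid2, a basement membrane protein, ranked 335, 354 and 436. A site 40.9 kb from Klf3, a repressor of adipogenesis, ranked 349, and one 68.1 kb from Ppp3ca, a calcineurin catalytic subunit, 341. The others of the first 10 were nearest to 4932414N04Rik, Adamts9 and Gm15246.

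The strongest lost sites were of middling score. The first (chr19:33191775-33192619), 307 kb from Lipo4, ranked 1856 of 6898. Sites inside Kdm6b, a histone demethylase, and 149 kb from Has2, which makes the matrix polymer hyaluronan, ranked 2136 and 2188. Lost sites of at least 2 kb stood apart. They were 28 of the 556 (5.04%), against 2.52% of shared and 0.792% of gained sites, and 15 of the 28 had no peak in any WT list. Of them 7 lay on chromosome 1 between 84 and 86 Mb, near Gm38510, Gm7592, A530032D15Rik and Slc16a14, 5 on chromosome 5 between 14 and 16 Mb near Gm21190 and Speer4 genes, and 3 on chromosome 4 between 145 and 148 Mb near the zinc finger genes Zfp978, Zfp980 and Zfp982. Most of these genes belong to families of near-identical copies, where the assignment of reads is uncertain. Without the wide sites 528 losses were left. The widest, of 9081 bp, was 62.2 kb from Cwc22.

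A smaller share of gained than of shared sites lay at gene ends. Within 1 kb of an end of a protein-coding gene lay 10.4% of shared sites (9.63 to 11.1), 6.61% of gained sites (6.17 to 7.08) and 11.2% of lost sites (8.80 to 14.0). The intervals of shared and gained sites did not overlap, while that of lost sites held the share of shared ones. Similar shares of all classes were inside gene spans, with 47.3% of shared, 48.5% of gained and 45.0% of lost sites. Over 100 kb from any coding gene lay 13.6% of shared (12.8 to 14.5) and 16.6% of gained sites (15.9 to 17.3). The sites farthest out, 1557 kb for a shared and 1602 kb for a gained one, were both nearest to Efnb2, which encodes an ephrin. Exon, intron and UTR classes were not analysed here.

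Gained sites lay about as far from the earlier ones as those lay from each other. The median distance from a gained site to the nearest Mut -Dox site was 53.9 kb, beside 49.6 kb from a shared site to its nearest other Mut -Dox site. To the nearest other Mut +Dox site the medians were 17.6 kb for gained and 17.1 kb for shared sites. Between chromosomes, the number of gained per shared site ran from 1.39 on chromosome 17 to 2.43 on X among those with shared sites, and the share of Mut -Dox sites kept ran from 88.7% on 17 to 94.4% on 14. Gained sites outnumbered shared ones on every chromosome with shared sites.

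Pparg showed the pattern of keeping and adding at a single gene. Within 50 kb of its span (chr6:115360879-115490404) Mut -Dox had 9 sites and Mut +Dox 19, all 9 kept and 10 gained. The strongest, inside the gene (chr6:115452103-115453448), ranked 107 in Mut -Dox and 12 in Mut +Dox. A pair of shared sites beyond the gene's far end (chr6:115519020-115520880 and chr6:115522768-115523827) ranked 4011 and 6514 before and 54 and 750 after. The gained sites of Pparg scored lower, from percentile 20.6 to 77.5 of Mut +Dox, and 9 of the 10 had a peak in at least 1 WT list. With equal numbers of the highest-scoring peaks in each list, Mut +Dox had only 1 more site at Pparg than Mut -Dox.

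**Figure D2:**
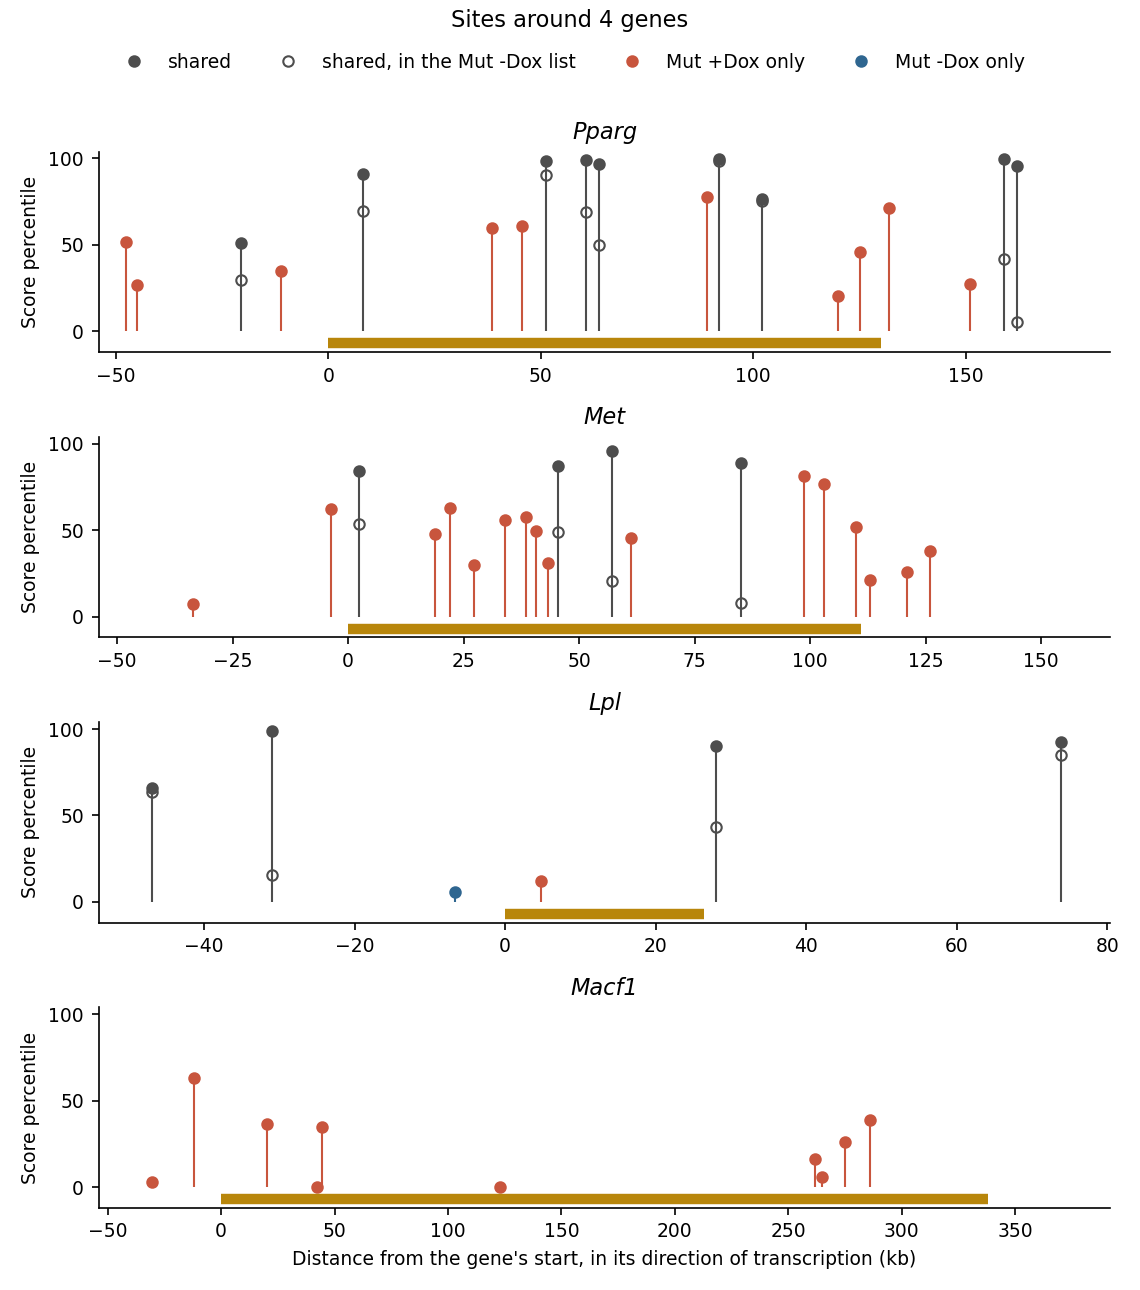
Sites within 50 kb of Pparg, Met, Lpl and Macf1, by distance from the gene's start in kb (horizontal axis) and by score percentile in their list (vertical axis, 100 the highest). Filled grey points are shared sites in Mut +Dox, open grey points the same sites in Mut -Dox, red points gained and blue points lost sites, and gold bars gene spans. Pparg keeps 9 sites and gains 10, Met keeps 4 and gains 16, Lpl keeps 4, and Macf1 gains 10.

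Among the C/EBP genes themselves, Cebpa, which encodes the C/EBP of mature fat cells, had 0 sites before and 2 after. One of these covered its promoter (chr7:35119043-35119342) at percentile 13.5 of Mut +Dox. Cebpb and Cebpd had 0 sites in both lists. The promoter of Cebpg, whose product dimerises with ATF4, lay under a shared site at percentiles 74.3 and 69.1, and its 2 sites were both kept. Ddit3, which encodes the stress-induced C/EBP homologue CHOP, went from 2 to 4, with its promoter under a shared site at percentiles 94.0 and 91.5. Of the 7 family genes 3 had more sites, 0 fewer, 1 an equal number and 3 none, beside 38.8% of all protein-coding genes with more and 1.65% with fewer.

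Over all 21883 protein-coding genes, 8481 (38.8%) had more sites within 50 kb in Mut +Dox and 360 (1.65%) fewer, with a median difference of 0. These shares are the background for each gene list. The lists together held 407 genes, of which 265 (65.1%) had more sites and 7 (1.72%) fewer. They covered fat cell genes and also general ones, such as cell cycle, stress response, bZIP, cytokine and chromatin genes. Of 80 genes of neurons, hepatocytes, muscle and blood cells, 25 (31.2%) had more and 1 (1.25%) fewer. Counted as gene and site pairs, the lists grew by about the factor of all genes. The 407 genes went from 519 to 1223 pairs, 2.36 after induction for each before it, the 80 genes from 30 to 66, a ratio of 2.20, and all protein-coding genes also had 2.36. The 25 comprised 7 neuronal, 4 hepatocyte, 7 muscle and 7 macrophage and blood cell genes, each of 20. Long genes collect more sites, and the median span was 24.2 kb in the first set, 19.7 kb in the other and 17.2 kb over all genes. The direction depended on list length. With the 6898 highest-scoring peaks of each list, 1864 genes had more and 2740 fewer, and of the 407 genes 91 had more and 83 fewer. Genes with fewer then outnumbered those with more among cell cycle genes (10 against 4) and stress genes (6 against 3). The same held for chromatin regulators (10 against 8) and other adipogenic transcription factors (6 against 5). Among genes of other cell types it held for muscle (4 against 0) and hepatocyte genes (2 against 1). It did not hold for neuronal genes (2 against 3) or macrophage and blood cell genes (1 against 1).

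**Figure D3:**
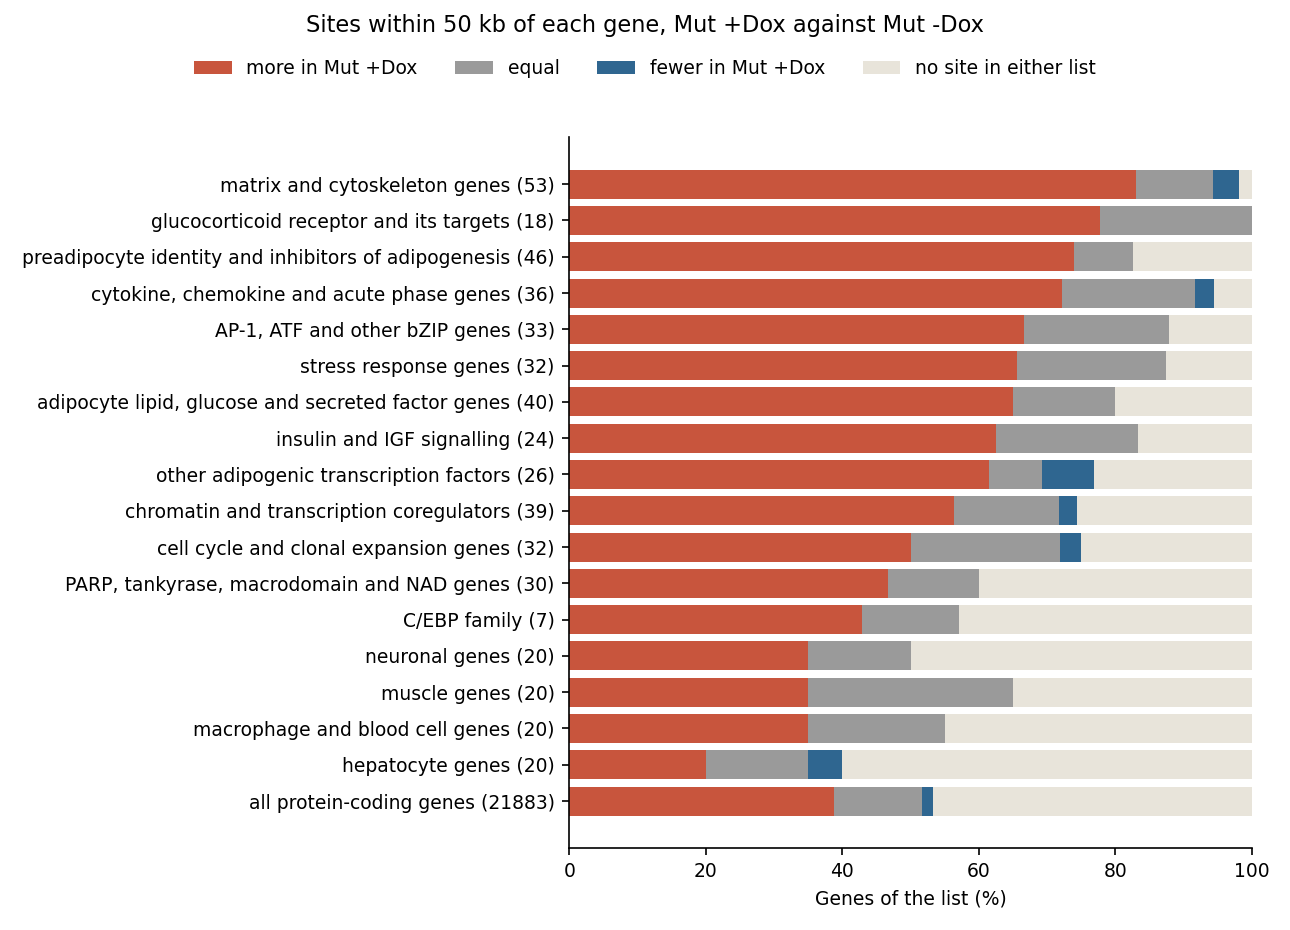
Genes of each list (vertical axis, number of genes in brackets) by the change in sites within 50 kb from Mut -Dox to Mut +Dox, as percent of the list (horizontal axis). Red is more, grey equal, blue fewer, and pale no site in either list. Matrix genes have the largest red share, 83.0%, and hepatocyte genes the smallest, 20.0%, beside 38.8% of all protein-coding genes.

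Other adipogenic transcription factors mostly had more sites, 16 of 26, with 2 fewer. Ebf1, a factor of the early fat lineage, went from 4 to 14 sites, Nfia, a partner in adipogenic priming, from 5 to 15, and its relative Nfib from 3 to 9. Ppargc1a, the coactivator of Pparg, went from 3 to 9. Klf4 kept its 1 site, and Klf5 and Srebf1 had none in either list. Stat5a and Stat5b, neighbouring genes of cytokine signal transducers, were the pair with fewer, from 1 to 0 and from 2 to 1. Both counts, and that of neighbouring Stat3, rest on the same lost site at percentile 1.28 of Mut -Dox.

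Of 40 adipocyte lipid, glucose and secreted factor genes, 26 had more sites and 0 fewer. Cav1 and Cav2, neighbouring genes of caveolins that share most of their sites, went from 2 to 10 and from 3 to 10. Acsl1, which activates fatty acids, went from 2 to 7 and Retn, the hormone resistin, from 1 to 5. Several genes had no site before. These included Adipoq, which encodes adiponectin, with 4 after, Scd1, the stearoyl-CoA desaturase, with 3, and Fabp4, the fatty acid carrier, and Plin1, the lipid droplet coat, with 2 each. All sites of Adipoq were in the lower part of the list, at percentiles 16.9 to 39.0, while the best of Plin1 reached 93.1. Cd36, the fatty acid receptor, went from 1 to 2.

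Lpl, which encodes lipoprotein lipase, had 5 sites in both lists, 4 shared and 1 each gained and lost. The site 31.0 kb before the gene's start ranked 5845 of 6898 in Mut -Dox and 182 of 17816 in Mut +Dox. The site just beyond its far end, 28.0 kb from the start, ranked 3898 and 1784. The lost site, at percentile 5.40 of Mut -Dox, and the gained site, at percentile 12.3 of Mut +Dox, were both weak and had no WT peak. Ranks from lists of unequal length show no change in binding.

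In the insulin and IGF list, whose median span was 73.9 kb, 15 of 24 genes had more sites and 0 fewer. With equal numbers of peaks 6 had more and 6 fewer. Igf1r, the IGF-1 receptor, went from 1 to 8, Igf1, its ligand, from 3 to 6, and Grb10, an adaptor that restrains insulin signalling, from 1 to 4. Insr, the insulin receptor, had 1 site in each list, a different one each time.

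Of the genes of PARPs, tankyrases, macrodomain proteins and NAD+ metabolism, 14 of 30 (46.7%) had more sites and 0 fewer. Together they went from 20 to 66 pairs, a ratio of 3.30, of which the long gene Macrod2 made up 4 and 17. With equal numbers of peaks 8 had more and 3 fewer. Tnks, tankyrase, went from 0 to 6 sites, the best at percentile 92.5, and only 2 of the 6 had a WT peak. Parp1, the main PARP of the nucleus, went from 0 to 1, and Nampt, which makes the NAD+ precursor, from 0 to 2. Macrod2, an eraser of ADP-ribose with a span of 1998 kb, went from 4 to 17. Nmnat2, an enzyme of NAD+ synthesis, went from 3 to 11. The promoter of Tnks2 lay under a gained site at percentile 8.93.

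AP-1, ATF and other bZIP genes had more sites at 22 of 33 and fewer at 0. Atf3 and Junb, a JUN family subunit of AP-1, each went from 0 to 2, Fosl1, of the FOS family, from 1 to 4, and Bach2, a bZIP repressor, from 5 to 9 with 2 sites lost. Fos had 0 in both lists. The Nfil3 promoter lay under a shared site at percentiles 94.3 and 97.1, beside the gained site named above. Genes of the glucocorticoid receptor and its targets had more at 14 of 18 and fewer at 0. The receptor gene Nr3c1 went from 0 to 5, the phosphatase gene Dusp1 from 0 to 4, Pdk4, a brake on glucose oxidation, from 1 to 7, and Fkbp5, a chaperone of the receptor, from 3 to 5.

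Inflammatory and acute phase genes had more sites at 26 of 36 and fewer at 1. Il1r1, the interleukin-1 receptor, went from 4 to 14, Csf1, a macrophage growth factor, from 3 to 12, and Tnfaip3, a brake on NF-κB, from 0 to 7. Cxcl1 and Cxcl2, neighbouring chemokine genes with shared sites, went from 3 to 10 and from 2 to 9, with the best gained site at percentile 96.5. Il6 went from 2 to 4, and Stat3, its signal transducer, from 3 to 2. The single site of the acute phase gene Hp, 0.133 kb from the gene (chr8:109578740-109579870), was kept, at rank 6750 of Mut -Dox and 796 of Mut +Dox.

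Genes that mark preadipocytes or restrain adipogenesis had more sites at 34 of 46 and fewer at 0. Tcf7l2, an effector of WNT signalling, went from 3 to 12, Runx2, the factor of bone formation, from 4 to 10, Klf3 from 2 to 7 and Zfp521, a repressor of the fat lineage, from 3 to 8. Matrix and cytoskeleton genes had more at 44 of 53 (83.0%) and fewer at 2. Their pairs went from 116 to 246, a ratio of 2.12, and with equal numbers of peaks 16 had more and 16 fewer. Fbn1, fibrillin 1, went from 9 to 21, Dcn, decorin, from 2 to 10, and Lamc1 and Lama4, laminin chains, from 2 to 9 and from 2 to 8. Eln, elastin, and Sparc, a collagen-binding protein, each went from 1 to 0.

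Cell cycle genes had more at 16 of 32 and fewer at 1. Cdk6 went from 1 to 7 and Ccnd1, cyclin D1, from 0 to 1, while Ccnd2, cyclin D2, went from 3 to 2. Stress response genes had more at 21 of 32 and fewer at 0. Gadd45a, a growth arrest gene, went from 5 to 9, Trib1, a pseudokinase that targets C/EBP proteins for degradation, from 3 to 8, and the neighbouring heat shock genes Hspa1a and Hspa1b from 0 to 4. Chromatin regulators had more at 22 of 39 and fewer at 1. Hdac9, a histone deacetylase, went from 4 to 15, and Dnmt3a, a DNA methyltransferase, from 1 to 0.

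The largest surpluses fell on long genes. Plcb1, a phospholipase C, went from 3 to 27 sites, Lpp, a focal adhesion protein, from 8 to 29, Lrmda from 12 to 30, Nrg1, the growth factor neuregulin 1, from 6 to 24 and Dlc1 from 6 to 22. Met, the receptor of hepatocyte growth factor, went from 4 to 20 over a span of 111 kb, against a median of 385 kb for the 55 genes with at least 10 more. All 4 of its earlier sites were kept, and 12 of its 16 gained sites had a WT peak. The others of the first 10 were Csgalnact1, Rad51b, Magi1 and Cmss1, with surpluses of 14 or 15.

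No Mut -Dox site lay near 4359 genes that had at least 1 in Mut +Dox. Macf1, a linker of actin and microtubules, had the most, 10, at percentiles 0.230 to 63.1. Samd5 had 9. Arhgap42, Exoc4, a subunit of the exocyst, Gcnt2, a glycosyltransferase, Nisch, the imidazoline receptor-binding protein nischarin, and Ankef1 had 8 each. Ccdc80, a secreted matrix protein, Enox1 and Itih5, an inter-alpha-trypsin inhibitor chain, had 7 each. The opposite, from at least 1 to 0, was seen at 222 genes. The largest deficits were at Gm38510, from 5 to 0, and Zfp978, from 4 to 0, both with near-identical copies. Alyref2 and Itln1 went from 5 to 1 through the same 4 lost sites, and Csad and Igfbp6 from 5 to 3 through the same 2.

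Promoters were kept and added in similar numbers, and few were lost. Of 17491 protein-coding genes with a promoter in the reference, 488 (2.79%) had one under a shared site, 525 (3.00%) under a gained site and 40 (0.229%) under a lost site. Of the 407 listed genes 31 had a shared, 19 a gained and 0 a lost promoter. Stress genes held 7 of the shared and 4 of the gained ones. Asns, asparagine synthetase, Chac1, Herpud1 and Trib3, a pseudokinase induced by ATF4, were shared. Hsp90b1, the chaperone GRP94, and Hspa1b were gained. The shared promoters of Tnfaip6, an anti-inflammatory hyaluronan-binding protein, stood at percentile 99.1 before and 99.0 after, and that of Il6 at 67.4 and 71.0.

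The palindrome stood in a larger share of shared than of gained promoters, and the AP-1 motif in similar shares. Both strands were searched, and TTGCGCAA is itself a case of TTGCNNAA. The palindrome was in 3.97% of 706 promoters under shared sites (2.76 to 5.67) and 0.988% of 810 under gained sites (0.501 to 1.94). Under lost sites it was in 1.79% of 56 promoters (0.316 to 9.45), an interval that holds the share of shared promoters. It was in 0.183% of all 32851. Of the 60 promoters that hold it, 28 were under shared, 8 under gained and 1 under lost sites, so 61.7% carried a site, against 4.79% of all promoters. The degenerate TTGCNNAA was in 25.6% of shared, 21.7% of gained and 26.8% of lost promoters, beside 10.8% of all. The composite was in 3.54% of shared promoters (2.41 to 5.18), 1.36% of gained ones (0.760 to 2.42) and 0.895% of all. Of 56 promoters under lost sites 0 held it, which allows a share of up to 6.42% (Wilson). The AP-1 motif TGANTCA was close to its share in all promoters, 7.81%, with 7.65% of shared and 8.89% of gained ones. Promoters of 1 gene can overlap, so these counts are not of independent sequences.

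**Figure D4:**
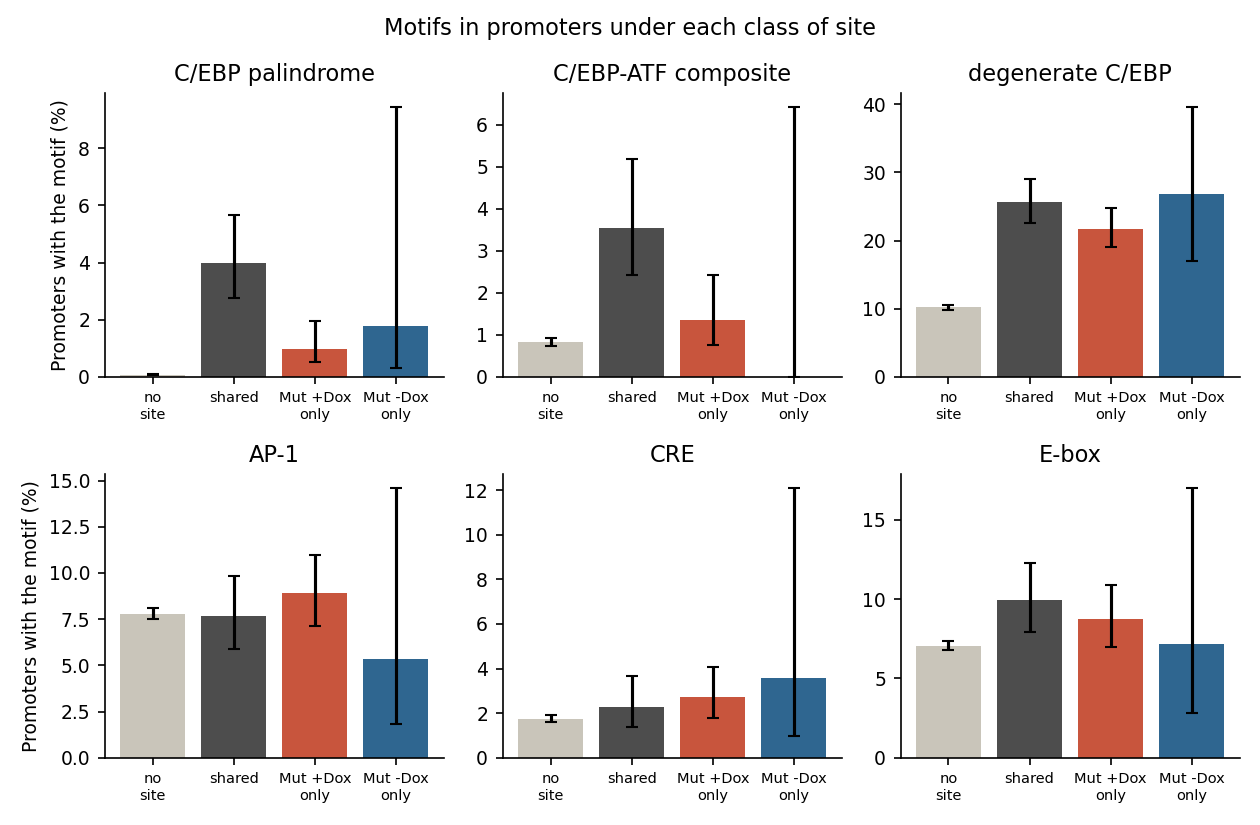
Share of promoters holding each of 6 motifs (vertical axes, percent, scales differ), for promoters with no site and under shared, gained and lost sites (horizontal axis). Bars carry 95% Wilson intervals. The palindrome is in 3.97% of shared and 0.988% of gained promoters, while the AP-1 motif is in 7.65% and 8.89%.

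Ranks at promoters with a motif are given beside those of all sites, whose median percentiles were 77.7 in Mut +Dox and 53.5 in Mut -Dox for shared sites and 35.8 for gained sites. The 23 shared sites with the palindrome covered promoters of 26 genes, and these promoters had a median percentile of 90.3 in Mut +Dox and 87.5 in Mut -Dox. The 8 gained promoters with it had a median of 34.6, close to that of all gained sites. Composite promoters under shared sites had medians of 84.4 and 83.8, and those under gained sites 30.1. Besides the 6 genes shown above, the shared composite promoters were those of Iars, Yars and Tars, which charge tRNAs, Slc1a4, a neutral amino acid transporter, Nupr1, a stress-induced nuclear protein, Echs1, an enzyme of fatty acid oxidation, Esrra, an orphan nuclear receptor, and Fbln5, a protein of elastic fibres. The rest were Serpinf1, Fancl, Hax1, Plekhh3, Zfp672, Sh3bgrl, Gm36301, Gm35837, Gm35337 and 5430403N17Rik.

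Most gained sites were not foreign to the wild-type line. Of the 11490, 75.3% (74.5 to 76.1) had a peak in at least 1 WT list. The share was 29.5% in WT -Dox, 45.6% in WT +Dox and 67.8% in WT +Dox +BYK. Those lists held 10959, 12384 and 18371 peaks, and a longer list can overlap more sites. All 145 gained sites of the highest decile were in WT +Dox +BYK, 144 were in WT +Dox and 122 in WT -Dox. The whole decile was alike, since 100% of its 1782 sites had a peak in some WT list and 99.9% in WT +Dox. The 2839 gained sites without a WT peak had a median percentile of 17.9 in Mut +Dox, and the 8651 with one 43.5. Shared sites had a WT peak in 98.9% of cases and lost sites in 70.0%. In the wild-type line itself, 8118 sites were kept, 4256 gained and 2803 lost, a ratio of 1.52 (1.45 to 1.59). The lists of WT -Dox and WT +Dox held 10959 and 12384 peaks, against 6898 and 17816 in the mutant line, so the starting points differed as well. That difference between lines was not tested, since each condition is 1 list.

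**Figure D5:**
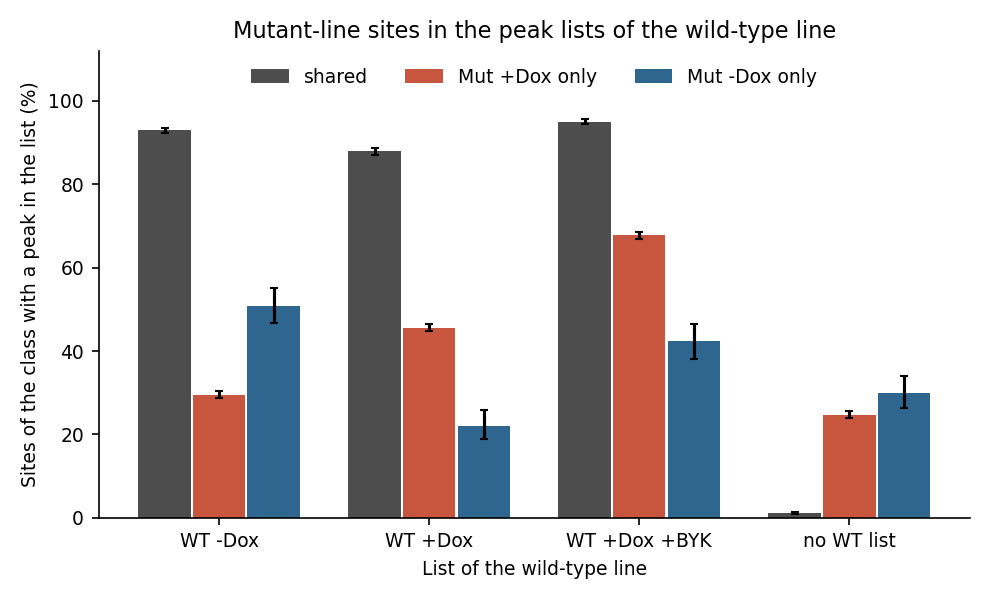
Share of shared (grey), gained (red) and lost (blue) sites of the mutant line with a peak in each list of the wild-type line, or in none (horizontal axis), in percent (vertical axis), with 95% Wilson intervals. Gained sites are found in 29.5% of cases in WT -Dox, a list of 10959 peaks, and in 67.8% in WT +Dox +BYK, a list of 18371.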

How the data were processed

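C/EBPβ ChIP DNA was sequenced from 2 libraries per condition. Reads were handled with Bowtie and bedtools on the mouse build mm10, per the submitters' processing notes. In the deposited files each peak name starts with MACS. Not given in the sources used here are the version and threshold of the caller, whether input was used, and whether replicates were pooled. The authors deposited 1 list per condition with a score per peak on a scale that is not named, so the score was used only for ranks. Depth is unknown.

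Lists were merged at 1 bp of overlap. Sites were assigned to each of 21883 RefSeq protein-coding gene spans (GRCm38.p6) within 50 kb of their midpoint. Neighbouring genes therefore share sites. Promoters of 300 bases came from RefSeq. Shares carry Wilson and ratios exact 95% intervals. The merge and counts were tested on simulated data. Alternatives covered overlap, widening, score, list length, covered bases, sex chromosomes and gene assignment.

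Members and gene lists were chosen with earlier results of these data known. Genes were named by rule. It took a panel of 24, the 5 members of each list that differed most in each direction, the 10 largest surpluses and deficits, the 10 strongest sites of each class and the 10 genes with most sites after 0. Other genes were named after their values were seen. Figures were drawn with matplotlib 3.10.9, and values computed in Python 3.11.15 with scipy 1.17.1, pandas 2.3.3 and numpy 2.4.6.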

Additional observations from a re-analysis of the deposited data

Results flagged for a closer look

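At 3 genes of the panel the number of sites went one way in the mutant line and the other way in the wild-type line. Each line has 1 list per condition, so the difference between the lines was not tested. Adipoq, which encodes adiponectin, had 0 sites in Mut -Dox and 4 in Mut +Dox, a difference of 4, while WT -Dox had 3 peaks and WT +Dox 1. Gadd45a, the growth arrest gene, had 5 and 9, also a difference of 4, and in WT 8 and 5. Parp1 had 0 and 1, a difference of 1, and in WT 2 and 1. Restricted to equal numbers of top peaks (6898 per list), the difference was 0 for Adipoq and Gadd45a and 1 for Parp1.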

How the results depend on the processing

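Requiring an overlap of at least 0.5 of the shorter peak, widening peaks by 250 bp or leaving out X and Y left the ratio of gained to lost sites between 20.5 and 20.6. With scores of at least 100 the ratio was 28.8, the share kept 93.7%, and shared, gained and lost sites numbered 3222, 6226 and 216. Above the median score of the own list these were 23.6, 93.0%, 3202, 5701 and 242. With equal numbers of peaks they were 1.01, 66.6%, 4576, 2320 and 2298. Equal numbers remove the surplus of the longer list by construction. In covered bases the ratio was 17.3 and the share kept 88.4%. Genes with more and fewer sites numbered 4646 and 235 within 10 kb, 2973 and 148 inside the span, 4855 and 223 by nearest gene, 5591 and 236 with scores of at least 100, and 1864 and 2740 with equal numbers. Of the listed genes 131 had more by span alone, and 91 had more and 83 fewer with equal numbers. There the difference became -1 at Fkbp5, -1 at Lpl (0 with the whole lists), -2 at Fbn1, -3 at Magi1 and -2 at Cmss1. It fell from 10 to 1 at Pparg and at Ebf1, and from 24 to 3 at Plcb1. No paired analysis was possible because the lists carry no replicate numbers, and for the same reason no replicate could be left out.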

Other observations

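Among the 6316 shared sites, ranked by score within this same set in both lists, those at gene ends stood lower after induction. The 654 within 1 kb of a gene end had a median place of 58.8 by Mut -Dox score and 46.1 by Mut +Dox score, where 100 is the highest, and the other 5662 had 49.1 and 50.5. The 558 at any promoter had 60.9 and 47.3. Those at promoters with a motif fell likewise, the 23 with the palindrome TTGCGCAA from 83.9 to 73.0 and the 23 with the composite TGATGCAA from 73.8 to 62.0. Near gene ends lay 14.8% of the highest decile of Mut -Dox sites and 7.74% of the highest decile of Mut +Dox sites. Over all deciles the share ran from 8.01% to 14.8% in Mut -Dox and from 6.97% to 9.16% in Mut +Dox. These deciles hold lost or gained sites beside shared ones. These comparisons were chosen after the values were seen.

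Single shared sites changed place by far more. A site 10.3 kb from Ahcyl1 went from place 1.29 to 92.1 and the site beside Hp, the haptoglobin gene, from 1.65 to 87.8. The site 31.0 kb before the start of Lpl (chr8:68848442-68850641) went from 13.1 to 97.2, and the outermost one beyond Pparg from 4.67 to 88.5. In the other direction, a site inside Rmnd5a went from 88.3 to 1.75 and a site inside Nfkbia, which encodes the NF-κB inhibitor IκBα, from 84.2 to 8.30. All 6 had a peak in each WT list.

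Of 1005 microRNA hairpins in RefSeq, 46 (4.58%) had a shared site within 5 kb, 61 (6.07%) a gained and 2 (0.199%) a lost one. For promoters of 17491 protein-coding genes the shares at this distance were higher, at 6.01%, 8.55% and 0.629%. Mir21a had a shared site 2.54 kb away at percentiles 64.1 and 89.5 and a gained one 3.09 kb away at 77.5. Gained sites lay beside Mir31, Mir130a, Mir214 and Mir22, at percentiles 54.3, 53.7, 46.5 and 37.9, and a pair of them flanked Mir29a and Mir29b-1, at 30.5 and 22.9.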
